A study of Saccharomyces cerevisiae with 30 samples.

Results

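HSP30, YRO2 and MRH1 are 3 related genes of budding yeast, picked by name from the 6101 genes of each deposited expression table and followed through all 30 RNA sequencing libraries of the study. All 3 were found in both tables and passed the filter on low values. Cells of BY4741, a laboratory strain, and of strains mutated in SAGA, a coactivator that acetylates histones and carries acetyl-binding bromodomains, grew at 28 °C in rich glucose medium to an OD600 of 0.7 and were then moved for 30 min to rich medium holding 2% sucrose or 2% glucose. The table for Ada3 held Ada3-3KR, in which acetylation of Ada3, a subunit of SAGA, is altered by mutation, in sucrose and in glucose, and its wild type, here called WT-a, in sucrose and in glucose. The bromodomain table held Gcn5m and Spt7m, which carry mutated bromodomains in Gcn5 or in Spt7, both subunits of SAGA, and a further wild type, here called WT-b, each in sucrose and in glucose. Each of the 10 groups had 3 libraries.

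The proteins belong to a small family of membrane proteins that resemble microbial rhodopsins. Hsp30 is a plasma membrane protein induced by heat shock, ethanol and weak acids, and is known as a negative regulator of the proton pump Pma1. Mrh1 is a plasma membrane protein, and Yro2 is its paralog, which the acid-response activator Haa1 regulates and whose loss makes cells sensitive to acetic acid.

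Values are FPKM, computed by the authors, which count fragments relative to gene length (in kilobases) and to the library's mapped fragments (in units of 1e+06). Levels can thus be set beside each other between genes of a library. Between libraries they also depend on the scaling, for which alternatives are given below. FPKM carries no read counts here, so the depth is unknown and no counting error is given. Summed over genes, FPKM came to 1223881 to 1288949 per library in the Ada3 table and 1152780 to 1283727 in the bromodomain table. Across genes, libraries within a group had correlations of 0.992 to 0.998. Every library had the mating type a transcripts MFA1, at 1423 to 4453 FPKM, and STE2, at 225 to 401 FPKM, while MF(ALPHA)1 stayed at or under 1.16 FPKM. STE3, the other alpha marker looked up, passed the filter on low values in both tables. It was lower in Gcn5m than in WT-b, with a log2 difference of -1.23 in sucrose and -0.78 in glucose. In Spt7m the STE3 difference was -1.08 in sucrose and -0.93 in glucose. Of the genes deleted in BY4741, MET17 was listed at 0 in every library and LEU2 stayed at or under 0.136 FPKM, and HIS3, of which the strain keeps a part, had 57 to 154 FPKM. URA3, also deleted in BY4741, had 223 to 444 FPKM in Gcn5m libraries and 7079 to 11463 FPKM in Spt7m libraries, against at most 2.3 FPKM in WT-b libraries and in both strains of the Ada3 table. In the bromodomain set a comparison of a mutant with WT-b is therefore also a comparison of cells with and without URA3 RNA, and these cannot be told apart there. The labels describe changes of the proteins, so RNA levels of NGG1, which encodes Ada3, GCN5 and SPT7 do not check the genotypes. The wild types of the tables also stood apart. In glucose HSP30 averaged 1699 FPKM in WT-a and 711 FPKM in WT-b, YRO2 11053 and 6106 FPKM, and MRH1 1201 and 1861 FPKM. Fold changes, differences and tests therefore stay within a table. Where levels of the tables are set side by side, they are the deposited FPKM values, with no test of the tables against each other.

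In build R64, HSP30 (YCR021C) lies at chrIII:156109-157107 on the minus strand, YRO2 (YBR054W) at chrII:343101-344135 on the plus strand and MRH1 (YDR033W) at chrIV:508147-509109 on the plus strand. Each is a single coding exon, of 999, 1035 and 963 bases for HSP30, YRO2 and MRH1 in that order, that overlaps no other annotated gene. In a joint alignment of the 3 coding sequences, YRO2 and MRH1 shared 711 of 963 aligned bases (73.8%). HSP30 shared 496 of 909 with MRH1 (54.6%) and 481 of 939 with YRO2 (51.2%). A stretch of 90 coding bases from the region most alike shows the relation, with capitals on the 53 bases that all 3 genes share. It spans coding bases 685 to 774 of HSP30 and 655 to 744 of YRO2 and of MRH1.
HSP30, chrIII:156334-156423, minus strand: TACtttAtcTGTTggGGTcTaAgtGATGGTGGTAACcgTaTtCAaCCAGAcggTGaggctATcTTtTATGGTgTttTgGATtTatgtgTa
YRO2, chrII:343755-343844, plus strand: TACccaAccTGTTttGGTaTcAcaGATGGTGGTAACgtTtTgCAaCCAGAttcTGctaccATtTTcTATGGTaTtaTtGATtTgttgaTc
MRH1, chrIV:508801-508890, plus strand: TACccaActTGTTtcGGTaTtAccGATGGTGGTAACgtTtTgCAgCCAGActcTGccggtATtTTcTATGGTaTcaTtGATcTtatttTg
In this stretch MRH1 differed from YRO2 at 17 of the 90 bases and HSP30 differed from YRO2 at 31. The longest match between YRO2 and MRH1 covered 715 bp at 80.6% identity, which is 69.1% of YRO2 and 74.2% of MRH1, and no gene of the 3 had a match of at least 90% identity elsewhere in the genome. How the authors treated reads that fit 2 places is not given in the sources used here.

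YRO2 was the most abundant of the 3 genes in most groups, and among the most abundant transcripts of wild-type cells in glucose. Its level was 10882, 11249 and 11029 FPKM in the 3 WT-a libraries in glucose, where it ranked 9 to 11 among all 6101 genes from the highest. HSP30 ranked 128 to 136 and MRH1 ranked 201 to 216 in those libraries. The 3 genes together made up 1.09% ± 0.025 of the summed FPKM of a WT-a library in glucose (SD, n = 3), and 0.0701% ± 0.0011 in Gcn5m in sucrose, the lowest mean of the 10 groups. HSP30 and YRO2 spanned a wide range between groups, whereas the means of MRH1 lay between 561 FPKM in Gcn5m in sucrose and 1861 FPKM in WT-b in glucose.

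**Figure D1:**
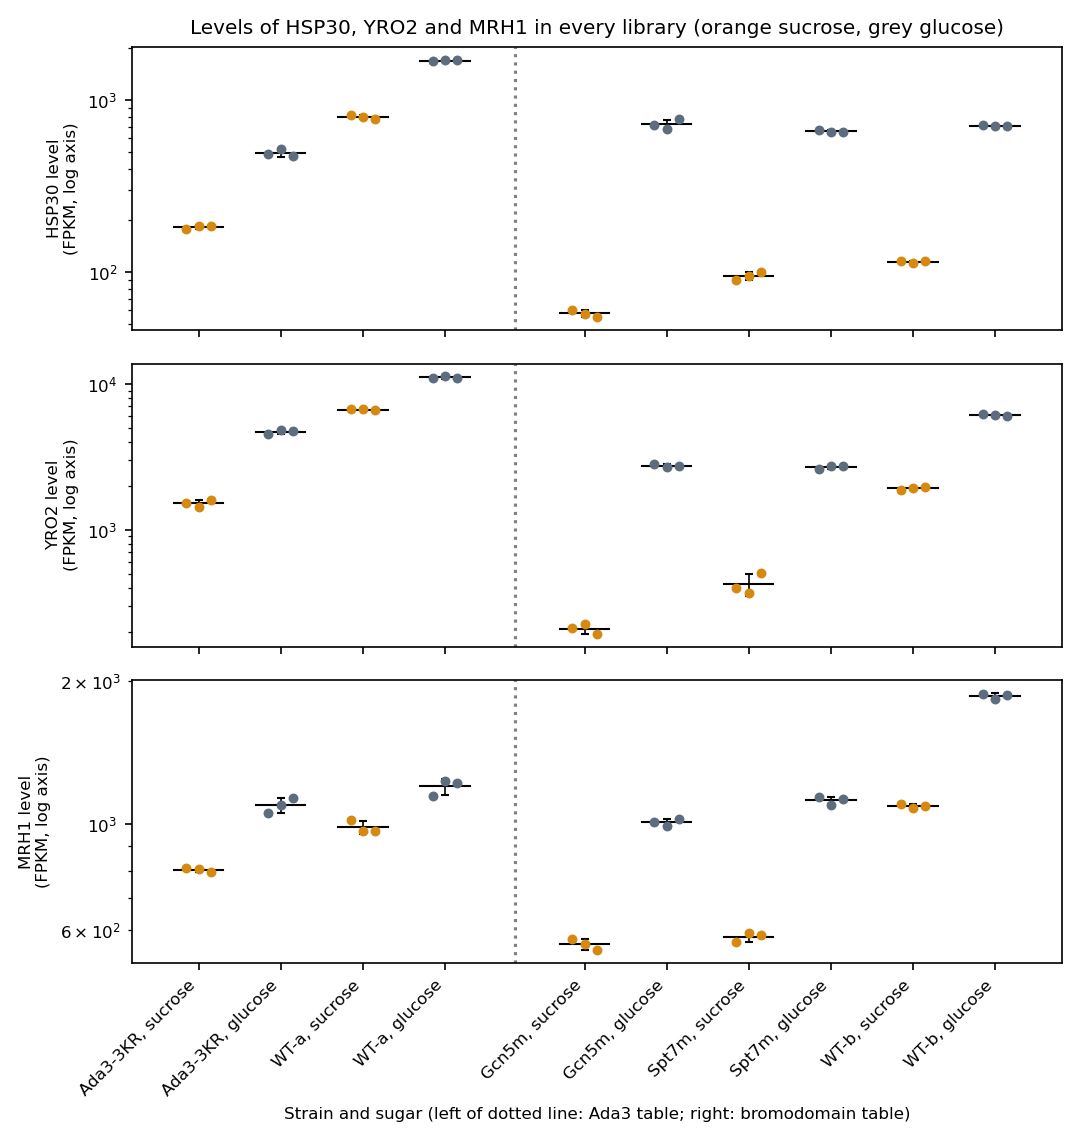
Level of each gene in FPKM (log axis) in every library, by strain and sugar, with orange points for sucrose, grey points for glucose, a bar at the mean and whiskers of 1 SD (n = 3). YRO2 reached from 209 FPKM on average in Gcn5m in sucrose to 6106 FPKM in WT-b in glucose within the bromodomain table, a far wider span than that of MRH1, from 561 to 1861 FPKM in the same groups.

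Sucrose against glucose came first. In every strain all 3 genes were lower in sucrose than in glucose, with no overlap between the 3 libraries of each medium. HSP30 and YRO2 were lower by more than MRH1 in each strain. Since these genes were taken up because of how they behaved in these data, their differences are given as descriptions, without a test.

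HSP30, the regulator of Pma1, had 178, 186 and 187 FPKM in the 3 Ada3-3KR libraries in sucrose, against 485, 521 and 477 FPKM in Ada3-3KR in glucose. It had 817, 793 and 774 FPKM in WT-a in sucrose, against 1680.0, 1710.0 and 1707 FPKM in WT-a in glucose. In both strains the sucrose libraries were the low ones, and the 2 media did not overlap. The level in sucrose was 2.69-fold lower in Ada3-3KR and 2.14-fold lower in WT-a, that is a difference of -1.42 ± 0.04 and of -1.10 ± 0.04 in log2(FPKM + 1) (standard error of the limma fit, n = 3 against 3). Groups did not overlap, with the sucrose group lower, for 21.1% of all genes tested in Ada3-3KR and for 16.2% in WT-a.

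Within the bromodomain table HSP30 was lowest in Gcn5m in sucrose. It had 60.7, 57.0 and 55.3 FPKM in Gcn5m in sucrose, against 719, 679 and 774 FPKM in Gcn5m in glucose, which is 12.6-fold lower (-3.63 ± 0.05). In Spt7m it had 89.8, 95.7 and 100.01 FPKM in sucrose, against 670.4, 658 and 650 FPKM in glucose, 6.93-fold lower (-2.78 ± 0.05). In WT-b it had 116, 113 and 116 FPKM in sucrose, against 719.5, 705 and 708 FPKM in glucose, 6.19-fold lower (-2.62 ± 0.05). The media did not overlap in any of these strains, a pattern shown in the same direction by 22.5% of all genes tested in Gcn5m, 25.5% in Spt7m and 16.9% in WT-b. Counted from the most negative sucrose-minus-glucose difference among the 5841 genes tested in that table, HSP30 ranked 2 in Gcn5m, 4 in Spt7m and 3 in WT-b.

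YRO2, the Haa1-regulated paralog of MRH1, had 1525, 1431 and 1602 FPKM in Ada3-3KR in sucrose, against 4542, 4788 and 4712 FPKM in Ada3-3KR in glucose, 3.08-fold lower (-1.62 ± 0.04). It had 6711, 6697 and 6571 FPKM in WT-a in sucrose, against 10882, 11249 and 11029 FPKM in WT-a in glucose, 1.66-fold lower (-0.73 ± 0.04). The sucrose libraries were again low in each strain without overlap, and the distance was larger in Ada3-3KR. Within the bromodomain table the mutants in sucrose had the lowest YRO2 levels. Gcn5m in sucrose had 210.2, 224 and 194 FPKM, against 2808, 2682 and 2739 FPKM in Gcn5m in glucose, 13.1-fold lower (-3.71 ± 0.08), which was the most negative difference of the 5841 genes. Spt7m in sucrose had 399, 369.6 and 506 FPKM, against 2616, 2713 and 2733 FPKM in Spt7m in glucose, 6.32-fold lower (-2.67 ± 0.08). The third Spt7m library in sucrose was the high one of its group, and the difference was -2.80 without it. WT-b had 1880.4, 1921 and 1952 FPKM in sucrose, against 6163, 6092 and 6063 FPKM in glucose, 3.18-fold lower (-1.67 ± 0.08).

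MRH1, the plasma membrane paralog, was the steadiest of the 3. Ada3-3KR had 809, 807 and 795.5 FPKM in sucrose, against 1059, 1097 and 1138 FPKM in glucose, 1.37-fold lower (-0.45 ± 0.04). WT-a had 1019, 969 and 967 FPKM in sucrose, against 1147, 1234 and 1221 FPKM in glucose, 1.22-fold lower (-0.28 ± 0.04). Within each strain the sucrose libraries stayed below the glucose libraries, by a modest distance. Gcn5m had 574, 562 and 545 FPKM in sucrose, against 1009.9, 994 and 1026 FPKM in glucose, 1.80-fold lower (-0.85 ± 0.03). Spt7m had 566, 591 and 587 FPKM in sucrose, against 1139, 1099.9 and 1129 FPKM in glucose, 1.93-fold lower (-0.95 ± 0.03). WT-b had 1101, 1082 and 1093 FPKM in sucrose, against 1879.6, 1833 and 1871 FPKM in glucose, 1.70-fold lower (-0.77 ± 0.03). Sucrose and glucose libraries did not overlap in these 3 strains either.

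The median sucrose-minus-glucose difference over all genes tested was above 0 in each strain, at 0.06 in Ada3-3KR, 0.08 in WT-a, 0.20 in Gcn5m, 0.19 in Spt7m and 0.17 in WT-b (log2). Other scalings of the libraries moved that median by -0.25 to -0.07, so that the 3 genes are best read against it. Relative to the median of all genes, the HSP30 difference was -1.48 in Ada3-3KR, -1.17 in WT-a, -3.82 in Gcn5m, -2.97 in Spt7m and -2.79 in WT-b. That of YRO2 was -1.69, -0.81, -3.90, -2.86 and -1.84, and that of MRH1 was -0.51, -0.36, -1.04, -1.14 and -0.94, in the same order of strains.

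**Figure D2:**
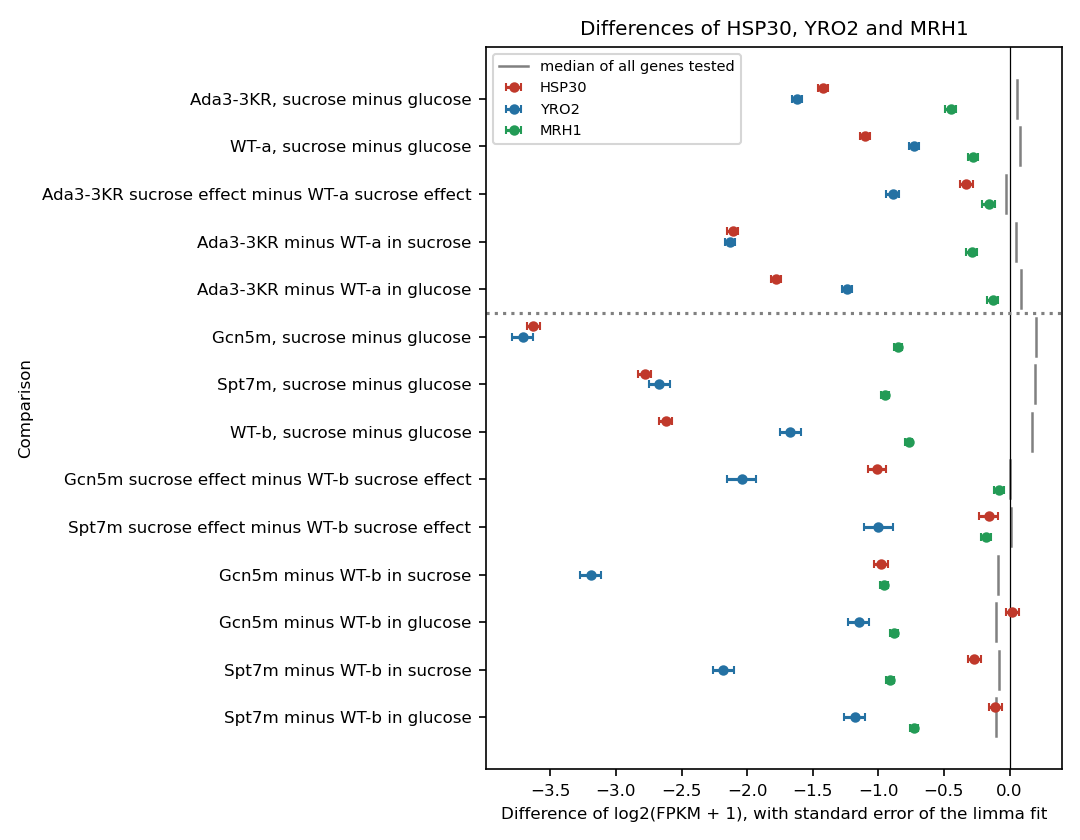
Difference of log2(FPKM + 1) of HSP30, YRO2 and MRH1 in each of the 14 comparisons (points, with the standard error of the limma fit as whiskers), beside the median of all genes tested (grey lines), with the comparisons of the Ada3 table above the dotted line. The 3 genes lie left of 0 throughout, except HSP30 in Gcn5m minus WT-b in glucose at 0.02.

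The next comparison set each mutant against its wild type in the same medium. In Ada3-3KR, HSP30 and YRO2 were lower than in WT-a in both media and MRH1 was a little lower. In the bromodomain mutants YRO2 and MRH1 were lower than in WT-b in both media. HSP30 was lower in the bromodomain mutants in sucrose, and close to WT-b in glucose.

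In sucrose, HSP30 averaged 184 ± 4.85 FPKM in Ada3-3KR and 795 ± 21.6 FPKM in WT-a (SD, n = 3 each), 4.33-fold lower (-2.11 ± 0.04). In glucose it averaged 494 ± 23.3 FPKM in Ada3-3KR and 1699 ± 16.6 FPKM in WT-a, 3.44-fold lower (-1.78 ± 0.04). The mutant level in glucose lay below the wild-type level in sucrose, so the order from the highest was WT-a in glucose, WT-a in sucrose, Ada3-3KR in glucose and Ada3-3KR in sucrose, with no overlap between neighbours. Counted from the most negative of 5830 genes, HSP30 ranked 11 in sucrose and 9 in glucose. A mutant group that lay wholly below WT-a was seen for 24.7% of all genes in sucrose and for 23.8% in glucose.

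YRO2 kept the same order of the 4 groups, also without overlap. It averaged 1519 ± 86.0 FPKM in Ada3-3KR and 6660 ± 77.2 FPKM in WT-a in sucrose, 4.38-fold lower (-2.13 ± 0.04), and 4681 ± 126 FPKM in Ada3-3KR and 11053 ± 185 FPKM in WT-a in glucose, 2.36-fold lower (-1.24 ± 0.04). MRH1 averaged 804 ± 7.23 FPKM in Ada3-3KR and 985 ± 29.6 FPKM in WT-a in sucrose, 1.23-fold lower (-0.29 ± 0.04), and 1098 ± 39.5 FPKM in Ada3-3KR and 1201 ± 47.0 FPKM in WT-a in glucose, 1.09-fold lower (-0.13 ± 0.04). The order of MRH1 differed from that of the other 2 genes, since Ada3-3KR in glucose stood above WT-a in sucrose. Against the median of all genes, 0.05 in sucrose and 0.09 in glucose, the 3 genes were lower in both media.

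In the bromodomain table the mutants share their WT-b libraries, so their comparisons are given side by side. YRO2 averaged 209 ± 15.3 FPKM in Gcn5m, 425 ± 71.6 FPKM in Spt7m and 1918 ± 35.8 FPKM in WT-b in sucrose, which is 9.16-fold lower in Gcn5m (-3.19 ± 0.08) and 4.51-fold lower in Spt7m (-2.18 ± 0.08). In glucose it averaged 2743 ± 63.2 FPKM in Gcn5m, 2687 ± 62.5 FPKM in Spt7m and 6106 ± 51.7 FPKM in WT-b, 2.23-fold lower in Gcn5m (-1.15 ± 0.08) and 2.27-fold lower in Spt7m (-1.18 ± 0.08). The mutants overlapped each other in glucose and did not overlap in sucrose, where Gcn5m was the lower. Each mutant lay wholly below WT-b in both media. A mutant group wholly below WT-b was seen for 44.3% of all genes in Gcn5m in sucrose and 42% in glucose. In Spt7m it was seen for 42.8% in sucrose and 42.9% in glucose. URA3, given above, differed between these same groups, and its part in the result was not tested.

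MRH1 averaged 561 ± 14.7 FPKM in Gcn5m, 582 ± 13.4 FPKM in Spt7m and 1092 ± 9.93 FPKM in WT-b in sucrose, 1.95-fold lower in Gcn5m (-0.96 ± 0.03) and 1.88-fold lower in Spt7m (-0.91 ± 0.03). In glucose it averaged 1009.8 ± 15.8 FPKM in Gcn5m, 1123 ± 20.3 FPKM in Spt7m and 1861 ± 24.6 FPKM in WT-b, 1.84-fold lower in Gcn5m (-0.88 ± 0.03) and 1.66-fold lower in Spt7m (-0.73 ± 0.03). With quantile normalization the MRH1 differences were further apart between media, at -0.98 in sucrose and -0.67 in glucose for Gcn5m, and -1.0 in sucrose and -0.61 in glucose for Spt7m. In the order of its 6 groups, Spt7m in glucose overlapped WT-b in sucrose, and Spt7m in sucrose overlapped Gcn5m in sucrose.

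HSP30 behaved otherwise. In glucose it averaged 724 ± 47.5 FPKM in Gcn5m and 711 ± 7.80 FPKM in WT-b, which overlapped, with a difference of 0.02 ± 0.05. It averaged 659 ± 10.5 FPKM in Spt7m in glucose, 1.08-fold lower than WT-b (-0.11 ± 0.05) and without overlap, but the median over all genes was -0.10 in that comparison. Relative to that median the HSP30 difference was -0.01, and in Gcn5m it was 0.12. In sucrose the level averaged 57.6 ± 2.76 FPKM in Gcn5m, 95.2 ± 5.13 FPKM in Spt7m and 115 ± 1.35 FPKM in WT-b, 1.99-fold lower in Gcn5m (-0.98 ± 0.05) and 1.21-fold lower in Spt7m (-0.27 ± 0.05), without overlap. Groups lay apart in this direction for 44.3% of all genes in Gcn5m and 42.8% in Spt7m in sucrose. Relative to the median of all genes the HSP30 difference in sucrose was -0.89 in Gcn5m and -0.19 in Spt7m. Counted from the most negative of 5841 genes, it ranked 217 in Gcn5m and 1922 in Spt7m.

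Subtracting the wild type's sucrose effect from that of a mutant puts strain and sugar together. For YRO2 this difference was -0.89 ± 0.05 in Ada3-3KR, -2.04 ± 0.11 in Gcn5m and -1.0 ± 0.11 in Spt7m, so the sucrose effect was more negative in each mutant than in its wild type. For HSP30 it was -0.33 ± 0.05 in Ada3-3KR, -1.01 ± 0.07 in Gcn5m and -0.16 ± 0.07 in Spt7m. For MRH1 it was -0.16 ± 0.05, -0.08 ± 0.04 and -0.18 ± 0.04 in the same order, and -0.26, -0.31 and -0.39 with quantile normalization. The median of all genes was -0.03, 0.00 and 0.01, and the Gcn5m value of YRO2 ranked 6 of 5841 from the most negative. Of all genes, limma called such a difference in either direction for 38.8% in Ada3-3KR, 41.6% in Gcn5m and 47.5% in Spt7m, at the threshold given with the tests below.

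Because the genes moved by different amounts, their mix changed between groups. YRO2 took 25.3% ± 1.15 of the summed FPKM of the 3 genes in Gcn5m in sucrose, against 61.3% ± 0.818 in Gcn5m in glucose, and MRH1 took 67.8% ± 1.01 against 22.6% ± 0.283 in the same groups. In Spt7m, YRO2 took 38.4% ± 3.74 in sucrose and 60.1% ± 0.879 in glucose. In WT-b it took 61.4% ± 0.581 in sucrose and 70.4% ± 0.215 in glucose. In Ada3-3KR it took 60.6% ± 1.48 in sucrose and 74.6% ± 0.133 in glucose, while in WT-a it took 78.9% ± 0.348 in sucrose and 79.2% ± 0.183 in glucose, with a mean gap within the spread of these libraries. The ratio of YRO2 to MRH1 was 0.366, 0.398 and 0.355 in the libraries of Gcn5m in sucrose, and 0.705, 0.625 and 0.861 in those of Spt7m in sucrose. These 6 libraries were the only ones of the 30 in which MRH1 exceeded YRO2, as the ratio averaged between 1.76 and 9.21 in the other 8 groups.

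**Figure D3:**
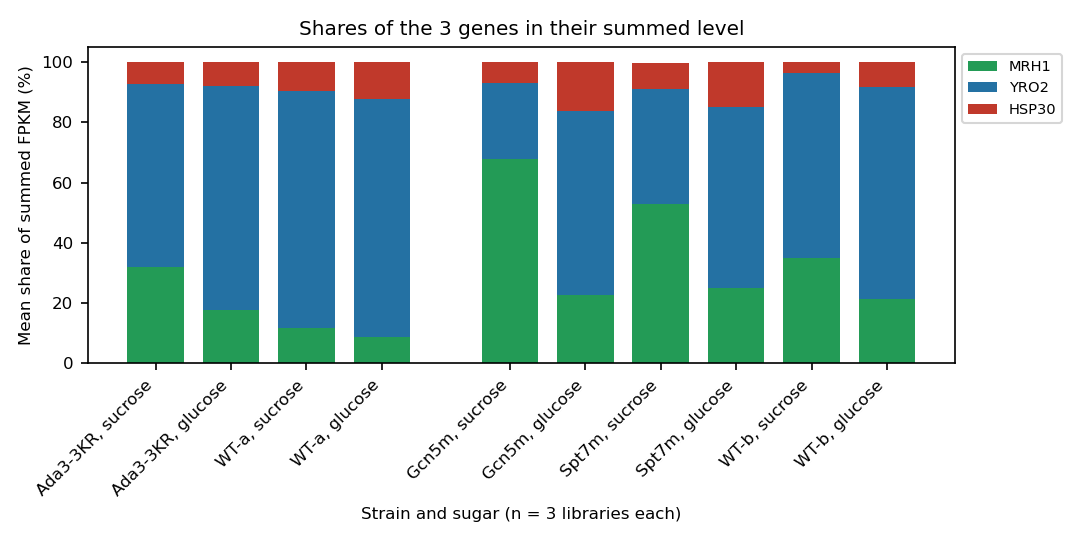
Mean share (%) of each gene in the summed FPKM of the 3 genes, by strain and sugar (n = 3 libraries each). MRH1 holds the largest share in Gcn5m in sucrose, at 67.8%, and in Spt7m in sucrose, at 52.9%, and YRO2 holds it in all other groups.

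HSP30 also changed its place beside the other genes. It took 6.96% ± 0.212 of the sum in Gcn5m in sucrose and 16.2% ± 0.779 in Gcn5m in glucose, 8.65% ± 0.360 in Spt7m in sucrose and 14.8% ± 0.377 in Spt7m in glucose, and 3.68% ± 0.0518 in WT-b in sucrose and 8.19% ± 0.0219 in WT-b in glucose. In the Ada3 table it took 7.33% ± 0.306 in Ada3-3KR in sucrose and 7.88% ± 0.308 in Ada3-3KR in glucose, against 9.42% ± 0.128 in WT-a in sucrose and 12.2% ± 0.113 in WT-a in glucose. WT-a in glucose was the only group in which HSP30 stood above MRH1, at a ratio of 1.42 ± 0.0426.

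**Figure D4:**
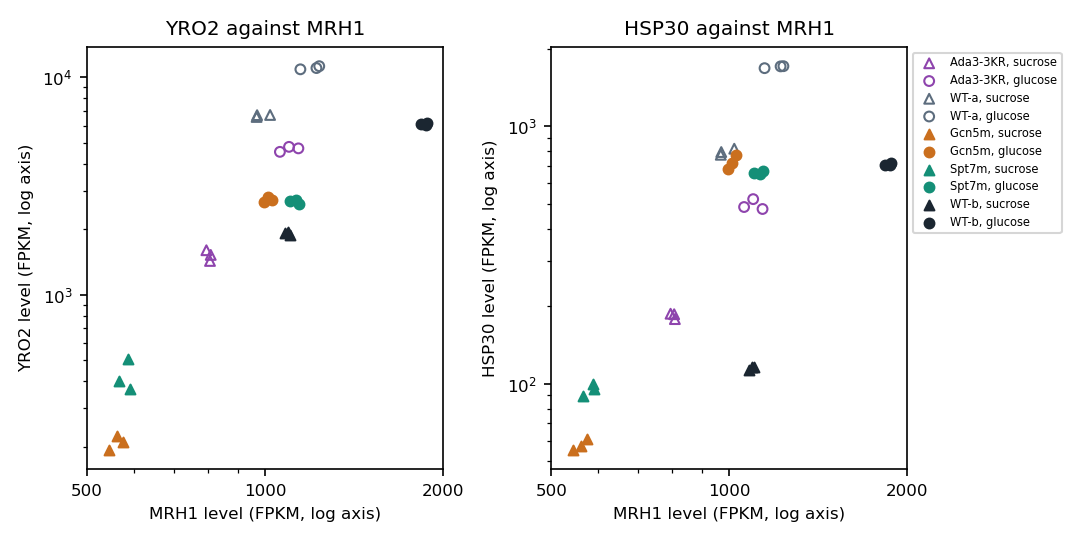
Level of YRO2 (left) and of HSP30 (right) against MRH1 in each of the 30 libraries (FPKM, log axes), with triangles for sucrose, circles for glucose, open symbols for the Ada3 table and filled symbols for the bromodomain table. WT-b in glucose stands far right because MRH1 averaged 1861 FPKM there, and in the right panel the bromodomain mutants in glucose, at 724 and 659 FPKM of HSP30, stand level with WT-b at 711 FPKM.

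The genes whose pattern was most like that of each of the 3 were looked up over the 30 libraries, with the Pearson r of log2(FPKM + 1) after subtraction of each table's mean, among 5420 genes that averaged 5 FPKM or more in both tables. These r values are descriptions, as libraries of 1 group share strain, medium and table. For HSP30 the 5 genes were YPS1 (r = 0.981), which encodes a cell surface aspartyl protease, RCR1 (0.971), DIA1 (0.966), the calmodulin-dependent kinase gene CMK2 (0.965) and YMR102C (0.959). YPS1 averaged 302 ± 20.1 FPKM in Gcn5m in sucrose and 825 ± 25.1 FPKM in Gcn5m in glucose, and 413 ± 10.9 FPKM in WT-b in sucrose and 803 ± 14.4 FPKM in WT-b in glucose, so that, as for HSP30, Gcn5m and WT-b were close in glucose and Gcn5m was lower in sucrose. In Spt7m in glucose, however, YPS1 averaged 1000 ± 20 FPKM, above WT-b, where HSP30 was slightly below. RCR1 in glucose also stood above WT-b (185 ± 6.82 FPKM), at 230 ± 11 FPKM in Gcn5m and 236 ± 8 FPKM in Spt7m.

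For YRO2 the 5 genes were TPH3 (0.975), MGA1 (0.974), which resembles heat shock factor genes, the plasma membrane protein gene SFK1 (0.968), YBR287W (0.968) and TPO3 (0.963), which encodes a polyamine exporter and stands on the weak acid list used below. MGA1 averaged 8.45 ± 0.747 FPKM in Gcn5m in sucrose and 51.6 ± 1.49 FPKM in Gcn5m in glucose, against 47.8 ± 2.07 FPKM in WT-b in sucrose and 123 ± 2.39 FPKM in WT-b in glucose. Like YRO2 it was lower in sucrose and in the mutant in both media. In WT-a, however, MGA1 averaged 82.0 ± 5.57 FPKM in sucrose and 76.3 ± 3.40 FPKM in glucose, where YRO2 was lower in sucrose.

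For MRH1 the 5 genes were YIR035C (0.979), the acid phosphatase gene PHO3 (0.978), the ribosomal protein gene RPL36B (0.969), TPH3 (0.954) and GCN1 (0.951), which encodes an activator of the kinase Gcn2. PHO3 averaged 49.3 ± 1.84 FPKM in Gcn5m in sucrose and 101 ± 2.89 FPKM in Gcn5m in glucose, against 158 ± 2.55 FPKM in WT-b in sucrose and 315 ± 9.87 FPKM in WT-b in glucose. The likeness of these genes to MRH1 was higher in the bromodomain table than in the Ada3 table, at 0.990 against 0.876 for YIR035C. Among each other, YRO2 and MRH1 had an r of 0.934, HSP30 and YRO2 of 0.901, and HSP30 and MRH1 of 0.769. MRH1 was the gene at rank 19 for YRO2, and HSP30 stood at rank 469 for MRH1. Within the Ada3 table alone the r of HSP30 and YRO2 was 0.988.

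Tests are given for other genes, although their lists too were chosen with earlier results of these data known, and TPO3 is also among the genes most like YRO2. They were fitted with limma on log2(FPKM + 1) over all genes of a table, with a threshold of 0.05 on the p-value after Benjamini-Hochberg adjustment for a call. Nothing in the labels tells whether the replicates came from separate cultures. The p-values thus rest on a spread among libraries that may be technical. Rose and fell are used below for called genes. In sucrose minus glucose, 32.9% of all genes rose and 17.7% fell in Ada3-3KR, 32.7% and 13.9% in WT-a, 52.2% and 21.8% in Gcn5m, 51.6% and 24.4% in Spt7m, and 50.9% and 15.7% in WT-b. These splits depend on the scaling. With quantile normalization 1452 genes rose and 1455 fell in Ada3-3KR in place of 1920 and 1034, 1100 and 1502 in WT-a in place of 1906 and 809, 1820 and 2191 in Gcn5m in place of 3048 and 1275, 1974 and 2280 in Spt7m in place of 3013 and 1424, and 1515 and 1849 in WT-b in place of 2975 and 919. Counts with median rescaling leaned the same way. They were 1431 risen and 1534 fallen genes in Ada3-3KR, and 1047 and 1765 in WT-a. In the bromodomain table they were 1741 and 2310 in Gcn5m, 1876 and 2427 in Spt7m, and 1330 and 2213 in WT-b.

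The nearest protein-coding genes on the chromosome mostly rose in sucrose or were not called, apart from a fall of YBR053C in Ada3-3KR. PST2, a gene for a flavodoxin-like protein that lies 3451 bp from MRH1, rose in sucrose in every strain, by 0.24 ± 0.03 in Ada3-3KR, 0.60 ± 0.03 in WT-a, 1.18 ± 0.03 in Gcn5m, 1.39 ± 0.03 in Spt7m and 1.06 ± 0.03 in WT-b (limma adjusted p between 1.42e-16 and 1.16e-05). It was also called higher in the mutants, by 0.76 in Ada3-3KR, 0.31 in Gcn5m and 0.12 in Spt7m in glucose. LYS14, which encodes an activator of lysine synthesis genes and lies 627 bp from MRH1, rose in sucrose by 0.82 ± 0.06 in Gcn5m, 0.89 ± 0.06 in Spt7m and 0.41 ± 0.06 in WT-b. It rose by 0.21 ± 0.06 in WT-a, a call that was lost with quantile normalization and median rescaling and without replicate 1 of WT-a in glucose (0.06 to 0.17), and it had 0.14 ± 0.06 in Ada3-3KR (limma adjusted p = 0.0665).

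YBR053C, 2349 bp from YRO2, rose in sucrose in Gcn5m (0.86 ± 0.05), Spt7m (1.23 ± 0.05) and WT-b (0.50 ± 0.05), fell in Ada3-3KR (-0.20 ± 0.04) and had 0.05 ± 0.04 in WT-a (limma adjusted p = 0.384). It was higher than in the wild type by 0.50 in Ada3-3KR, 0.89 in Gcn5m and 0.82 in Spt7m in sucrose, where YRO2 was lower. PRP6, a splicing factor gene 466 bp from YRO2, fell in the bromodomain mutants relative to WT-b, with -0.39 in Gcn5m and -0.41 in Spt7m in sucrose. Its rise in sucrose of 0.17 in Gcn5m and 0.16 in WT-b turned to between -0.09 and -0.05 with quantile normalization and median rescaling, which gave no call. HTL1, a gene for a subunit of the RSC chromatin remodeller 552 bp from HSP30, rose in sucrose by 0.60 in Gcn5m, 0.40 in Spt7m and 0.49 in WT-b. The call in Spt7m was lost with both scalings, at 0.13 and 0.15. YCR022C, 313 bp from HSP30, averaged under 10 FPKM in every group, and its calls in sucrose (0.61 in WT-a, 0.78 in Gcn5m and 0.95 in Spt7m) were each lost when single libraries were left out (0.41 to 0.85 over the settings that lost them in WT-a, Gcn5m and Spt7m).

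The bases just before the coding sequences were searched for 3 short motifs on both strands. These were the stress response element AGGGG, the heat shock element GAANNTTC or TTCNNGAA, and the Mig1-type sites, spelled GCGGGG, or GTGGGG, or CCGGGG, or CTGGGG, none of which contains another. None was found in the 300 bases before any of the 3 start codons, while 22.2%, 22.4% and 12% of 6001 such windows before other genes held them in this order. The window of HSP30, whose level differed the most between media in WT-b, fills nearly all of the gap to YCR022C and has a GC content of 26.3%. It is shown in lower case throughout, as it held no match.
HSP30, chrIII:157108-157407, minus strand: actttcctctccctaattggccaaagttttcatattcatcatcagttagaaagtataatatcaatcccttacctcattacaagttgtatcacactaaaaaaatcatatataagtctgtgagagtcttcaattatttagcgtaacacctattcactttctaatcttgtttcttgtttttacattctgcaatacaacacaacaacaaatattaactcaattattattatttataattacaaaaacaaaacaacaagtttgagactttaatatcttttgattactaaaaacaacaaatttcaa
With 600 bases, YRO2 had 1 stress response element, 536 to 532 bases before its start, and MRH1 had 1 heat shock element, 479 to 472 bases before its start. HSP30 again had none, and no Mig1-type site was found for any of the 3. Of 5999 windows of that length, 39.7% held a stress response element, 41.2% a heat shock element and 27.8% a Mig1-type site. The 60 bases around both matches follow, with the match in capitals. They come from the reference genome in build R64.
YRO2, chrII:342537-342596, plus strand: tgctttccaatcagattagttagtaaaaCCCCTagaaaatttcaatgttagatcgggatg
MRH1, chrIV:507642-507701, plus strand: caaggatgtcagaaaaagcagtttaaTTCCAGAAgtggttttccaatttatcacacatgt
The element of YRO2 reads CCCCT on the strand shown, the reverse complement of AGGGG. A match describes the letters of a window and does not show that a factor binds there.

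Genes with roles near those of the 3 were described from short lists. The proton pump list held 11 genes for the pump that Hsp30 regulates and for its own regulators. In sucrose minus glucose, 0 rose and 5 fell in Ada3-3KR (median -0.08), 0 and 5 in WT-a (-0.09), 2 and 5 in Gcn5m (-0.11), 2 and 5 in Spt7m (-0.06), and 2 and 5 in WT-b (-0.02). More genes of the list fell with median rescaling, with 0 risen and 9 fallen in Ada3-3KR (-0.15), 0 and 8 in WT-a (-0.21), 1 and 9 in Gcn5m (-0.36), 2 and 9 in Spt7m (-0.33), and 0 and 8 in WT-b (-0.28). That scaling also gave more fallen genes among all genes in every strain, for example 2310 in Gcn5m in place of 1275. PMA1, the main pump gene, had 762, 784 and 740.1 FPKM in Gcn5m in sucrose, against 1785, 1653 and 1678 FPKM in Gcn5m in glucose, and fell by 1.16 ± 0.05 (limma adjusted p = 3.51e-13). It fell by as much in Spt7m (-1.16 ± 0.05) and fell by 0.75 ± 0.05 in WT-b. It was not called in Ada3-3KR (-0.05 ± 0.03, limma adjusted p = 0.19). In WT-a it fell by 0.23 ± 0.03, a call lost with quantile normalization (-0.11, limma adjusted p = 0.0813). PMA2, the minor pump gene, rose in sucrose by 0.97 ± 0.09 in Gcn5m and 1.12 ± 0.09 in Spt7m, and PTK2, which encodes a kinase that activates the pump, fell by 0.51 ± 0.05 in Ada3-3KR.

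Against the wild type, 1 gene of the pump list rose and 8 fell in Ada3-3KR in sucrose and 1 rose and 7 fell in glucose, where of all genes 33.8% rose and 22.2% fell in sucrose and 40.2% rose and 22.1% fell in glucose. Of these, PMP2, for a small protein bound to the pump, fell by 0.94 ± 0.04 in sucrose and fell by 0.65 ± 0.04 in glucose, and PMA1 fell by 0.60 ± 0.03 in glucose. In Gcn5m, 2 rose and 6 fell in sucrose and 0 rose and 5 fell in glucose, and in Spt7m 3 rose and 6 fell in sucrose and 0 rose and 4 fell in glucose. There 28% of all genes rose and 42.6% fell for Gcn5m in sucrose, 20.8% and 41.2% for Gcn5m in glucose, 28.8% and 41.5% for Spt7m in sucrose, and 15.7% and 37.5% for Spt7m in glucose. With quantile normalization the split in glucose was 1708 risen and 1789 fallen genes in Gcn5m in place of 1216 and 2405, and 1338 and 1448 in Spt7m in place of 917 and 2191. AST1, which helps deliver the pump to the membrane, fell in all 4, with -0.79 and -0.96 in Gcn5m and -0.77 and -0.64 in Spt7m (sucrose, then glucose). The 3 that rose in Spt7m in sucrose were PMA2 (0.91 ± 0.09), AST2 (0.44) and PMP1 (0.17), and PMA2 was the largest change of the list there. The 2 that rose in Gcn5m in sucrose were AST2 (0.24) and PMA2 (0.20).

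The weak acid list held 13 genes, among them HAA1, whose product regulates YRO2, and genes known to respond to weak acids. In sucrose minus glucose, 1 rose and 9 fell in Ada3-3KR (median -0.45), 2 and 7 in WT-a (-0.24), 6 and 6 in Gcn5m (-0.18), 6 and 6 in Spt7m (-0.01), and 4 and 7 in WT-b (-0.33). With median rescaling the split leaned lower, as it did over all genes, to 4 and 7 in Gcn5m (-0.43), 4 and 8 in Spt7m (-0.28), 2 and 9 in WT-b (-0.57) and 0 and 9 in WT-a (-0.36). TPO2, a polyamine exporter gene, fell in sucrose in every strain, with -1.08 ± 0.06 in Ada3-3KR, -1.27 ± 0.06 in WT-a, -2.44 ± 0.06 in Gcn5m, -2.96 ± 0.06 in Spt7m and -1.65 ± 0.06 in WT-b. TPO2 had 19.2, 18.3 and 19.7 FPKM in Gcn5m in sucrose, against 109.8, 107 and 106 FPKM in Gcn5m in glucose. Its relative TPO3 fell by 1.28 ± 0.04 in Gcn5m, while GRE1, a hydrophilin gene, rose by 2.47 ± 0.09 in Spt7m. Against the wild type, 1 rose and 9 fell in Ada3-3KR in sucrose and 4 and 7 in glucose, 3 and 8 in Gcn5m in sucrose and 0 and 11 in glucose, and 4 and 7 in Spt7m in sucrose and 1 and 10 in glucose. Median rescaling gave 0 and 9 in Gcn5m in glucose, where it gave 1634 risen and 1899 fallen over all genes. Of all genes in sucrose, 33.8% rose and 22.2% fell in Ada3-3KR, 28% and 42.6% in Gcn5m, and 28.8% and 41.5% in Spt7m. In glucose these shares were 40.2% and 22.1%, 20.8% and 41.2%, and 15.7% and 37.5%, in the same order of mutants. TPO2 fell, with -1.86 and -2.05 in Ada3-3KR in sucrose and glucose, and -1.53 in Gcn5m and -1.75 in Spt7m in sucrose. MSC1 went the other way in Spt7m in sucrose, where it rose by 2.23 ± 0.08, the largest change of the list there. YGP1 had -1.42 in Gcn5m in sucrose, and -1.51 in Gcn5m and -1.60 in Spt7m in glucose. PHM8 had -1.18 in Gcn5m and -1.08 in Spt7m in glucose.

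**Figure D5:**
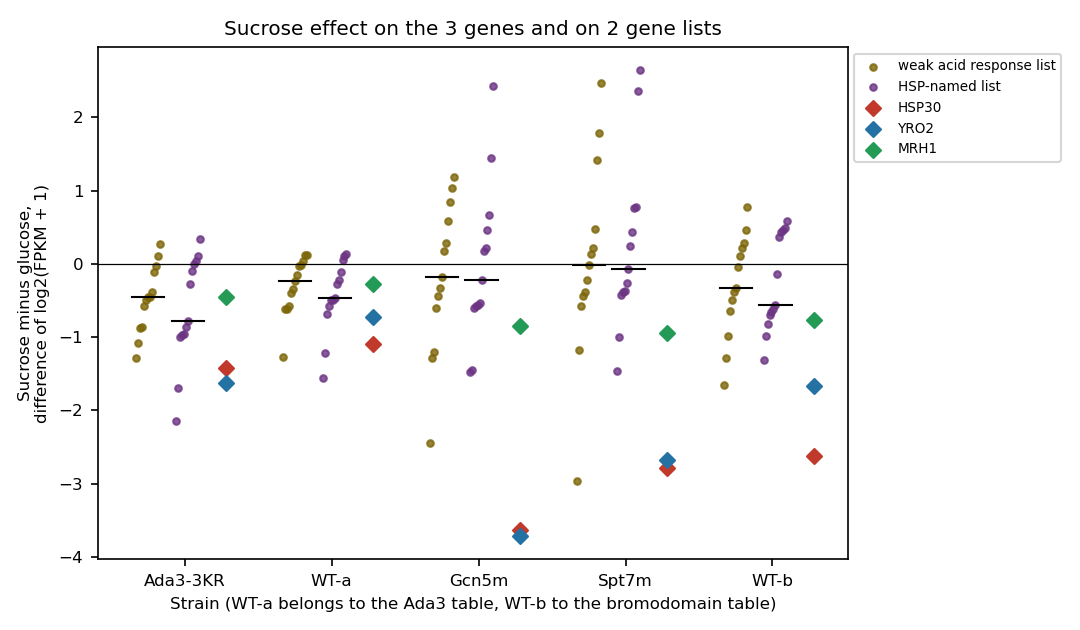
Sucrose-minus-glucose difference of log2(FPKM + 1) for HSP30, YRO2 and MRH1 (diamonds) and for the 13 genes each of the weak acid list and of the HSP-named list (small points, with a bar at the list's median), by strain. In Gcn5m, HSP30 at -3.63 and YRO2 at -3.71 lie below all points of both lists, whose lowest, TPO2, stands at -2.44.

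The HSP-named list held 13 other genes for heat shock proteins, since HSP30 carries that name. In sucrose minus glucose, 1 rose and 8 fell in Ada3-3KR (median -0.78), 1 and 9 in WT-a (-0.47), 6 and 7 in Gcn5m (-0.22), 6 and 6 in Spt7m (-0.07), and 4 and 8 in WT-b (-0.56). Median rescaling gave 3 risen and 7 fallen in Gcn5m (-0.48), 5 and 7 in Spt7m (-0.33), and 3 and 8 in WT-b (-0.82). It also gave fewer risen and more fallen genes over all genes in these strains. HSP12, a small stress protein gene, had 8753, 8436 and 8322 FPKM in Gcn5m in sucrose, against 1648, 1564 and 1548 FPKM in Gcn5m in glucose, and rose by 2.42 ± 0.04. It also rose by 2.64 ± 0.04 in Spt7m and by 0.58 ± 0.04 in WT-b, and fell in Ada3-3KR (-2.14 ± 0.04) and in WT-a (-1.21 ± 0.04). HSP26, a small chaperone gene, rose by 1.44 ± 0.06 in Gcn5m and 2.36 ± 0.06 in Spt7m, and fell in WT-b (-0.56 ± 0.06), Ada3-3KR (-1.69 ± 0.04) and WT-a (-1.56 ± 0.04). HSP104, a disaggregase gene, went the way of HSP30 and fell in Gcn5m (-1.47 ± 0.05) and in WT-b (-1.31 ± 0.05). Against the wild type, 4 rose and 5 fell in Ada3-3KR in sucrose and 6 and 2 in glucose, 7 and 4 in Gcn5m in sucrose and 6 and 4 in glucose, and 7 and 2 in Spt7m in sucrose and 3 and 4 in glucose. Shares of all genes in sucrose were 33.8% risen and 22.2% fallen in Ada3-3KR, 28% and 42.6% in Gcn5m, and 28.8% and 41.5% in Spt7m. In glucose they were 40.2% and 22.1%, 20.8% and 41.2%, and 15.7% and 37.5%, in the same order of mutants.

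The eisosome list held 15 genes for the plasma membrane furrows called eisosomes. In sucrose minus glucose, 0 rose and 11 fell in Ada3-3KR (median -0.34), 9 and 2 in Gcn5m (0.44), and 9 and 2 in Spt7m (0.58). With median rescaling more genes fell, as was so over all genes, at 9 and 6 in Gcn5m (0.19) and 9 and 4 in Spt7m (0.31). The list had no stable direction in the wild types, with 4 risen and 4 fallen in WT-a and 6 and 5 in WT-b, against 2 and 8 in either wild type with quantile normalization. FMP45, of the Sur7 family, fell by 2.20 ± 0.07 in Ada3-3KR and rose by 0.91 ± 0.06 in Gcn5m and 1.67 ± 0.06 in Spt7m, where the 3 genes were lower in sucrose throughout. Against the wild type, 3 rose and 8 fell in Ada3-3KR in sucrose and 9 and 2 in glucose, 9 and 2 in Gcn5m in sucrose and 7 and 4 in glucose, and 9 and 1 in Spt7m in sucrose and 2 and 4 in glucose. The last count turned to 7 risen and 3 fallen with median rescaling, which gave 1315 risen and 1453 fallen over all genes there. Among all genes in sucrose, 33.8% rose and 22.2% fell in Ada3-3KR, 28% and 42.6% in Gcn5m, and 28.8% and 41.5% in Spt7m. In glucose the shares were 40.2% and 22.1%, 20.8% and 41.2%, and 15.7% and 37.5%, in the same order of mutants.

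Of the stress regulators HSF1, MSN2 and MSN4, MSN4 was called lower in each mutant than in its wild type, with -1.10 and -0.71 in Ada3-3KR, -0.41 and -0.52 in Gcn5m, and -0.58 and -0.48 in Spt7m (sucrose, then glucose). HSF1, for heat shock factor, rose in sucrose by 0.44 in Gcn5m and 0.43 in Spt7m. It also rose by 0.35 in WT-b, which median rescaling brought to 0.10 with no call by limma, and by 0.13 in WT-a, which quantile normalization brought to 0.00 (limma adjusted p = 0.955). MSN2 was called higher in sucrose by 0.28 in Ada3-3KR than in WT-a, by 0.51 in Gcn5m and by 0.40 in Spt7m than in WT-b.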

How the data were processed

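HSP30, YRO2 and MRH1 and the gene lists were chosen with earlier results of these data known. Per the labels, libraries were made from total RNA of whole cells with a TruSeq kit. Named in the submitters' processing notes, with no roles or settings, are build R64, StringTie 1.3.3b, HISAT2 2.1.0 and cutadapt 1.16. The deposited FPKM values, in a separate file for each set, were used as the authors made them, and 2 gene names that a spreadsheet had turned into dates were restored. YRO2 values carry more than 6 decimals in 11 libraries of the Ada3 table and 4 of the bromodomain table, as do 1944 and 1912 genes. How such values were composed is not given in the sources used here. FPKM keeps no counts, so the depth is unknown.

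Values were taken as log2(FPKM + 1), a scale that understates changes of low genes. The 5830 and 5841 genes that averaged 1 FPKM or more within their table were fitted with limma 3.58.1 (R 4.3.3, version 1.17.8 of data.table), with 1 mean per group, a trend of variance with mean and a spread shared by the groups of a table. A call needs an adjusted p (Benjamini-Hochberg, within a comparison) under 0.05. Simulated data were used to check the fit. The genes named are the 3 members in all comparisons, up to 2 called genes with the largest change per list and comparison, the chromosome neighbours, the 5 genes most alike and strain markers. YGP1 is 1 of the list genes, and in sucrose minus glucose it had -0.62 in WT-a and -1.29 in WT-b. Differences between its sucrose effects are in the closing section. A few values of listed genes under the threshold were added for context.

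Same-numbered libraries had an r above 0.1 in every pair for WT-a in sucrose and glucose alone (0.118 to 0.408). For Ada3-3KR and WT-a in glucose the r was also positive throughout, from 0.099 to 0.362. In each of the remaining comparisons of groups the lowest r was negative, and no replicate block was used in the main fit. Python 3.11.15 with Biopython 1.88 and matplotlib 3.10.9, BLAST 2.17.0 and MAFFT 7.526 served the sequences and figures. The window of 600 bases for motifs was chosen after the shorter one had been seen. Alternatives left out each library in turn, fitted the compared groups only, added a replicate block, rescaled to the median, normalized by quantiles, dropped the filter or set it at 5 FPKM, and took 0.1 as pseudocount.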

Additional observations from a re-analysis of the deposited data

Results flagged for a closer look

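For genes of the lists that were among the largest called changes of any comparison, and for chromosome neighbours, the sucrose effect in a mutant minus that in its wild type was tested in the same limma fit. The genes below were called at an adjusted p under 0.05. The values are differences of log2 differences, and the comparisons of Gcn5m and Spt7m share WT-b. All genes were tested in each, and 38.8% were called for Ada3-3KR, 41.6% for Gcn5m and 47.5% for Spt7m. The list genes were picked for large changes in the same libraries, which favours calls among them. They are therefore not to be weighed against these shares.

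In Ada3-3KR the sucrose effect was more negative than in WT-a for the eisosome genes FMP45 (-1.75 ± 0.10), YNL194C (-1.28) and NCE102 (-0.75), for HSP12 (-0.93), HSP104 (-0.48) and HSP42 (-0.42), for the weak acid list genes MSC1 (-0.70), GRE1 (-0.35) and YGP1 (-0.26), for PMP2 (-0.30), PTK2 (-0.29) and AST1 (-0.23) of the pump list, for the regulator MSN4 (-0.39) and for the neighbours PST2 (-0.36) and YBR053C (-0.25). It was more positive for HSP150 (0.38), PMA1 (0.18) and TPO3 (0.16). These adjusted p-values lay between 2.28e-09 and 0.0496.

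In Gcn5m the sucrose effect was more positive than in WT-b for HSP26 (2.0 ± 0.09), HSP12 (1.84 ± 0.06), FMP45 (1.28), YNL194C (1.27), MSC1 (1.21), NCE102 (1.06), PMA2 (0.76), PTK2 (0.56), HSP42 (0.43), LYS14 (0.42), GRE1 (0.40), YBR053C (0.35), MSN2 (0.33) and HRK1 (0.29). It was more negative, as for YRO2 and HSP30, for the exporter genes TPO2 (-0.79) and TPO3 (-0.29), the pump list genes PMA1 (-0.41) and PMP2 (-0.40), and HSP150 (-0.75), HSP10 (-0.31), HSP60 (-0.25) and HSP104 (-0.17). These adjusted p-values lay between 2.87e-13 and 0.049.

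In Spt7m the sucrose effect was more positive than in WT-b for HSP26 (2.92 ± 0.09), MSC1 (2.16), HSP12 (2.05), FMP45 (2.04), GRE1 (1.69), YNL194C (1.55), YGP1 (1.27), NCE102 (1.19), PMA2 (0.91), FHN1 (0.72), YBR053C (0.72), HSP42 (0.62), PTK2 (0.57), LYS14 (0.48), PST2 (0.33), HSP104 (0.31) and HRK1 (0.26). It was more negative for TPO2 (-1.31), HSP150 (-0.76), PMP2 (-0.50), PMA1 (-0.41), HSP10 (-0.25) and TPO3 (-0.18). These adjusted p-values lay between 9.3e-14 and 0.045. HSP104 differed from WT-b in opposite directions in Gcn5m and Spt7m, and the difference between the mutants was not tested.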

How the results depend on the processing

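The differences of HSP30, YRO2 and MRH1 in all 14 comparisons kept their direction under every alternative that was run, except HSP30 in Gcn5m minus WT-b in glucose, which lay near 0 and ranged from -0.02 to 0.07 when single libraries were left out. They moved by less than the spread between replicates under the pseudocount of 0.1 and under every left-out library. Both filters and the fit of only the compared groups leave the group means as they are. So does the replicate block, as every group holds the same replicate numbers. These settings therefore do not check the differences.

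The scaling of the libraries moved more. In sucrose minus glucose, quantile normalization gave HSP30 -1.02 in WT-a, -3.80 in Gcn5m, -2.99 in Spt7m and -2.75 in WT-b, YRO2 -0.54 in WT-a and -1.58 in WT-b, and MRH1 -0.20 in WT-a, -0.97 in Gcn5m, -1.06 in Spt7m and -0.66 in WT-b. Median rescaling gave HSP30 -1.22, -3.89, -3.05 and -2.87, YRO2 -0.86, -3.97, -2.94 and -1.93, and MRH1 -0.41, -1.11, -1.22 and -1.03 in the same strains, and MRH1 -0.52 in Ada3-3KR. In mutant minus wild type in glucose, quantile normalization and median rescaling gave YRO2 -1.13 and -1.29 in Ada3-3KR, -1.21 and -1.07 in Gcn5m, and -1.23 and -1.10 in Spt7m, MRH1 -0.67 and -0.80 in Gcn5m and -0.61 and -0.64 in Spt7m, and HSP30 -0.02 with both in Spt7m. In sucrose they gave MRH1 -1.0 and -0.84 in Spt7m. Quantile normalization gave YRO2 -3.31 in Gcn5m, and median rescaling gave HSP30 -0.91 and MRH1 -0.88 in Gcn5m. For the difference between sucrose effects, quantile normalization gave YRO2 -1.04 in Ada3-3KR, and MRH1 -0.26 in Ada3-3KR, -0.31 in Gcn5m and -0.39 in Spt7m. It kept 3 of the 5 genes most like HSP30, 3 for YRO2 and 2 for MRH1. Both scalings set the median of all genes nearer to 0 in sucrose minus glucose, and the cause of the other changes was not tested.

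The replicate block cannot change the differences of the 3 genes, as every group holds the same replicate numbers. It bears only on standard errors and calls. Counts of called genes stayed within 1.5 times, the limit set for an unchanged count. For sucrose against glucose in WT-a the block gave 2660, against 1906 higher and 809 lower without it. For Ada3-3KR against WT-a in glucose it gave 3615, against 2343 higher and 1286 lower. In these comparisons same-numbered libraries had a positive r in every pair. In the other comparisons the block gave between 2208 and 4442 called genes. Elsewhere PRP6 turned to -0.09 and -0.08 in WT-b and to -0.05 and -0.07 in Gcn5m (sucrose minus glucose), and HSF1 to 0.00 in WT-a with quantile normalization. With 3 libraries a group and no counts, precision is limited by the spread between libraries.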
